A study of Mus musculus with 7 samples.

Results

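The 10 genes followed here, *Gfap*, *Vim*, *Lcn2*, *Serpina3n*, *Steap4*, *S1pr3*, *Cd44*, *Stat3*, *Chi3l1* and *Aspg*, are known to be expressed by reactive astrocytes, and their mRNA was compared between mice with and without an intact *Bmal1* locus after contusion of the spinal cord. They were chosen by name, with earlier results of these data known, from a table of 21965 genes. All 10 were in it, and all 10 passed the filter on low counts that left 15743 genes for testing. *Chi3l1* is listed in the mouse annotation under the symbol *Chil1*. RNA came from a 5 mm segment around a moderate T9 contusion (50 kdyn), taken 3 days after injury (dpi 3). There were 3 *Bmal1*-/- libraries by their labels (KO-labelled below), 2 of females and 1 of a male, and 4 of WT mice of which 2 were males. Each library came from a separate mouse. The *Bmal1*-/- mice carried the B6.129-Arntltm1Bra/J allele in the whole body on a C57BL/6J background, and C57BL/6J mice served as WT, most of them purchased and 1 a littermate of the knockouts. All mice were young adults and all were injured, so that every difference below is one between genotypes in injured tissue. The segment held all cell types of the lesion.

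Astrocytes answer injury of the central nervous system by a change of shape and of gene expression called reactive astrogliosis. They build more intermediate filament protein, of which GFAP is the classical marker, and secrete acute phase and matrix binding proteins. Cytokines of the IL-6 family, which signal through the shared receptor gp130 and the transcription factor STAT3, are a main drive of this response, and astrocytes in which it is active border the lesion after spinal cord injury.

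Among the 10 genes, *Chi3l1*, which encodes the secreted chitinase-like protein known as YKL-40 in humans, was lower and *Aspg*, which encodes an asparaginase, was higher in the KO-labelled libraries than in WT. *Chi3l1* fell from 69.4 ± 15.1 CPM (read counts scaled by library size; SD, n = 4) to 10.3 ± 0.28 CPM (SD, n = 3). *Aspg* was at 31.6 ± 1.31 CPM (SD, n = 3), up from 22.4 ± 2.00 CPM (SD, n = 4). The other 8 genes, *Gfap* and *Stat3* among them, did not pass an adjusted p of 0.05 in the quasi-likelihood test of edgeR, with Benjamini-Hochberg adjustment over all genes tested. DESeq2, the tool that the authors used, also called *Gfap*, *Serpina3n*, *Steap4* and *Cd44*. In bulk tissue, fewer cells of a type and less RNA per cell cannot be told apart.

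The sequence before the start of transcription is shown for the 2 genes that passed the test and for *Steap4*, the only member with a match to a motif that was searched. These are 250 bases of RefSeq sequence on GRCm38.p6, ending at the base before the RefSeq start, all on the + strand, and capitals mark the match. The *Chi3l1* window is chr1:134181906-134182155, the *Aspg* window is chr12:112106433-112106682 and the *Steap4* window is chr5:7960222-7960471. GENCODE places the start of *Chi3l1* further downstream, at 134182176. The bases checked after the RefSeq start were not in a GENCODE transcript for *Chi3l1*, while they were for *Aspg* and *Steap4*. Among the members not shown, they were not in one for *Serpina3n* and *S1pr3* either.
Chi3l1: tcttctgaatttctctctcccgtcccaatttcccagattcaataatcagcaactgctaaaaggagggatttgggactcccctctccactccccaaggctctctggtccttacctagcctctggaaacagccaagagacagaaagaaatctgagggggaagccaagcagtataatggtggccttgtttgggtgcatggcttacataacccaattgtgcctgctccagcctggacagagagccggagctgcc
Aspg: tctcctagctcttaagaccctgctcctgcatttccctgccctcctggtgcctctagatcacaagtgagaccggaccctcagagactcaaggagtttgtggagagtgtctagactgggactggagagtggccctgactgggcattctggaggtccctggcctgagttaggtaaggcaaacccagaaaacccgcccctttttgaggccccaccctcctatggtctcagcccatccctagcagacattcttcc
Steap4: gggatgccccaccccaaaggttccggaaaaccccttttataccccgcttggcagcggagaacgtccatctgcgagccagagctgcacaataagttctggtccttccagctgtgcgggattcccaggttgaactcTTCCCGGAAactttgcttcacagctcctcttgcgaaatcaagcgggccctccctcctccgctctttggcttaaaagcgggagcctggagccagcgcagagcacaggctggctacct
The 2 motifs searched were palindromes, which read the same on both strands and do not overlap each other. All 10 members had a window. TTCNNNGAA, the motif that STAT proteins bind, was in 1 member, where TTCCCGGAA starts at position -116 of *Steap4*, and in 7.02% of the 32851 mouse windows of the same length. CACGTG, the canonical E-box that BMAL1 binds with CLOCK, was in 0 of the 10 members and in 6.02% of all windows. No match says only that these letters are not in these 250 bases.

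The depth was alike in all libraries, with 38529644 to 44096737 counted reads. The first principal component (48.6% of the variance) separated the genotypes, with -48.6 to -18.3 in the KO-labelled libraries and 10.2 to 51.4 in WT. On the second (26.3%), both WT females stood at -32.4, the WT males at 36.9 and 7.23, and the KO-labelled libraries at -2.44 to 15.3. WT replicate 3 (a male) was the highest library on both. WT replicate 3 also had the highest summed level of 9 macrophage markers (4297 CPM, where the others had 2143 to 2960), the highest of 8 neutrophil markers (138 against 34.3 to 86.1 CPM) and the lowest of 6 neuron markers (2022 against 3598 to 5895 CPM). The targeted gene *Arntl*, which encodes BMAL1, had 24.1, 24.2 and 22.5 CPM in the KO-labelled libraries and 14.7, 15.3, 11.9 and 13.4 CPM in WT (log2 fold change 0.77, SE 0.10, adjusted p = 0.0155, edgeR). Its count thus went against the label. A count over the whole gene does not resolve the deleted part. The antisense gene *Gm45355* shares only 33 of the 7523 exon bases of *Arntl*. Known targets of BMAL1, chosen after their values were seen, did not overlap between the groups. *Nr1d1* had 5.31 to 7.28 CPM in the KO-labelled libraries and 29.2 to 36.8 CPM in WT, *Dbp* had 7.80 to 8.83 against 25.3 to 39.3 CPM, and *Cry1* had 40.2 to 44.8 against 12.9 to 15.4 CPM. *Nr1d1* and *Dbp* each overlap a gene on the other strand. Groups are called by their labels throughout. Astrocyte RNA was abundant in all libraries, and 16 genes of astrocyte identity that were not chosen for injury (the water channel gene *Aqp4* and the glutamate transporter gene *Slc1a2* among them) summed to 8251 to 13371 CPM.

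**Figure D1:**
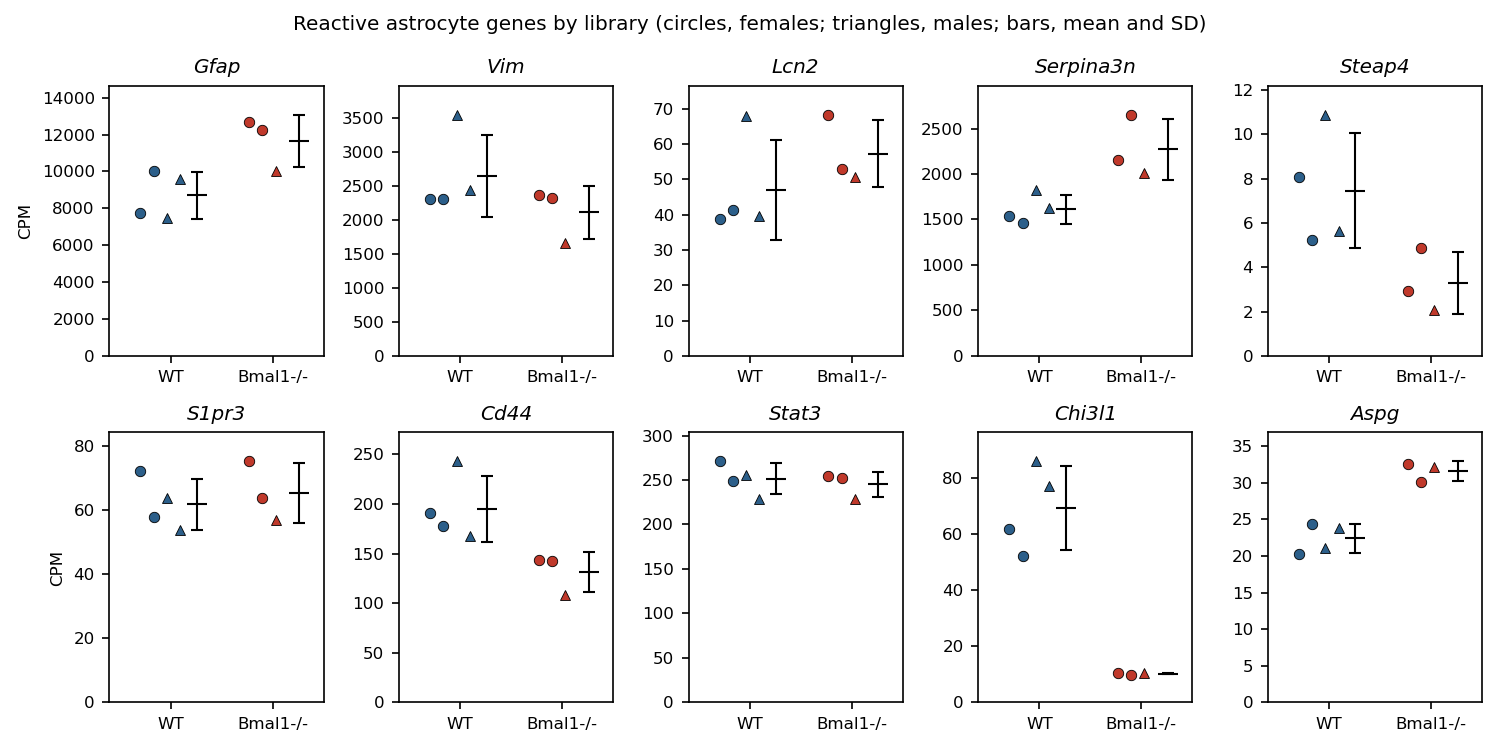
Level of each of the 10 genes (CPM, linear axes from 0) in the 4 WT libraries (blue) and the 3 KO-labelled libraries (red), with circles for females, triangles for males and black bars for the mean and SD. *Chi3l1* lies between 9.93 and 10.4 CPM in the labelled libraries and between 52.3 and 86.0 CPM in WT, whereas *Vim*, *Lcn2*, *S1pr3* and *Stat3* overlap between genotypes.

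*Chi3l1* (ENSMUSG00000064246, chr1:134182176-134190181, + strand, GRCm38) had the strongest difference. It was counted at 10.4, 9.93 and 10.4 CPM in KO-labelled replicates 1, 2 and 3 and at 61.9, 52.3, 86.0 and 77.3 CPM in WT replicates 1 to 4. These levels rest on 410 to 428 reads in the former and on 2036 to 3443 reads in the latter. The groups were far apart, and the lowest WT library was 41.9 CPM above the highest KO-labelled one. Both WT males were above both WT females, while the KO-labelled male stood at the level of its 2 female counterparts. The mean was 6.76-fold higher in WT, a log2 fold change of -2.76 (SE 0.18, 95% interval -3.18 to -2.33, adjusted p = 0.000738). By p it ranked 17 of the 15743 genes, and 60 genes had a lower log2 fold change. The coefficient of variation was 2.7% in the 3 labelled libraries and 21.8% in WT. Whether the spread between mice differed was not tested, and few mice and reads cannot settle it. With any 1 of the 7 libraries left out, the log2 fold change stayed between -2.88 and -2.64 and the test was passed 7 of 7 times.

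*Lcn2* and *Serpina3n* encode the other secreted proteins of the list, and neither passed the test. *Lcn2* (ENSMUSG00000026822, chr2:32384633-32388252, - strand) encodes lipocalin 2, which binds iron-loaded siderophores and is an acute phase protein of astrocytes and neutrophils. It had 68.2, 52.8 and 50.7 CPM in the KO-labelled libraries and 38.7, 41.2, 68.0 and 39.5 CPM in WT. The groups overlapped through a single library, WT replicate 3, since the other WT libraries were all below the labelled ones. The log2 fold change was 0.29 (SE 0.22, 95% interval -0.23 to 0.81, adjusted p = 0.436), and with 1 library left out it ran from 0.14 without KO-labelled replicate 1 (adjusted p = 0.754) to 0.52 without WT replicate 3 (adjusted p = 0.0527, edgeR). That library also had the most RNA of neutrophil markers (138 CPM), whose part in the *Lcn2* level was not tested.

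*Serpina3n* (ENSMUSG00000021091, chr12:104406729-104414329, + strand) encodes a secreted serine protease inhibitor that is among the most widely used markers of reactive astrocytes. Its levels were 2152, 2650 and 2008 CPM in the KO-labelled libraries against 1537, 1456, 1829 and 1627 CPM in WT. All 3 were above all 4, and the means stood in a ratio of 1.41. Its log2 fold change was 0.49 (SE 0.14, 95% interval 0.16 to 0.82), with an unadjusted p of 0.00933 and an adjusted p of 0.136 (edgeR). DESeq2 called *Serpina3n* (adjusted p = 0.00547). The gene lies in a cluster of near-identical *Serpina3* copies, so that its reads can be split or lost in counting.

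The filament genes *Gfap* and *Vim* did not pass the test and had log2 fold changes of opposite sign. *Gfap* (ENSMUSG00000020932, chr11:102887336-102900912, - strand) was the most abundant of the 10 genes in every library. Levels were 12657, 12249 and 10021 CPM in the KO-labelled libraries and 7750, 10000.5, 7457 and 9600 CPM in WT. No labelled library was below a WT library, but the gap between KO-labelled replicate 3 and WT replicate 2 was only 20.5 CPM. The means were 11642 ± 1419 (SD, n = 3) and 8702 ± 1285 CPM (SD, n = 4). This gave a log2 fold change of 0.42 (SE 0.20, 95% interval -0.05 to 0.89, adjusted p = 0.270). The interval runs from about no difference to a rise by nearly 1 log2 unit, so the data did not settle whether *Gfap* differed. DESeq2 called *Gfap* (adjusted p = 0.0477).

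*Vim* (ENSMUSG00000026728, chr2:13573927-13582826, + strand) encodes vimentin, which forms filaments with GFAP in reactive astrocytes and is also made by endothelial cells, fibroblasts and leukocytes. Its levels were 2364, 2321 and 1660 CPM in the KO-labelled libraries and 2305, 2318, 3551 and 2441 CPM in WT. Replicate 3 was the extreme of both groups, the lowest KO-labelled and the highest WT value, and the other 5 libraries lay between 2305 and 2441 CPM. The log2 fold change was -0.33 (SE 0.21, 95% interval -0.83 to 0.17, adjusted p = 0.373), and it was -0.16 without WT replicate 3.

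The 3 genes of membrane proteins gave 2 that were lower in every KO-labelled library and 1 that was not. *Cd44* (ENSMUSG00000005087, chr2:102811141-102901665, - strand) encodes the hyaluronan receptor, which leukocytes, fibroblasts and reactive astrocytes carry. KO-labelled libraries held 143, 143 and 108 CPM, and WT held 191, 178, 243 and 168 CPM. The lowest WT library was 24.9 CPM above the highest labelled one. Its log2 fold change was -0.57 (SE 0.16, 95% interval -0.94 to -0.20), with an unadjusted p of 0.00774 and an adjusted p of 0.127 (edgeR). DESeq2 called *Cd44* (adjusted p = 0.0179). *Cd44* was highest in WT replicate 3, the library with the most RNA of macrophage markers, and a log2 fold change of -0.45 was left without it.

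*Steap4* (ENSMUSG00000012428, chr5:7960457-7982213, + strand) encodes a metalloreductase that reduces iron and copper at membranes, and was the least abundant of the 10 genes. Its levels were 2.95, 4.85 and 2.08 CPM in the KO-labelled libraries, or 82 to 209 reads. WT libraries had 8.09, 5.24, 10.9 and 5.65 CPM, or 204 to 436 reads. The groups did not overlap, although KO-labelled replicate 2 and WT replicate 2 were only 0.393 CPM apart. The log2 fold change of -1.18 (SE 0.36, 95% interval -2.03 to -0.33) was the lowest after that of *Chi3l1*, with an unadjusted p of 0.0133 and an adjusted p of 0.155 (edgeR). DESeq2 called *Steap4* (adjusted p = 0.0221).

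*S1pr3* (ENSMUSG00000067586, chr13:51408639-51422797, + strand) encodes a receptor for sphingosine 1-phosphate. It had 75.2, 63.9 and 56.8 CPM in the KO-labelled libraries and 72.2, 57.7, 63.7 and 53.7 CPM in WT. The ranges nearly coincided. This gave a log2 fold change of 0.08 (SE 0.13, 95% interval -0.22 to 0.38, adjusted p = 0.716), and the long noncoding RNA gene *Gm32834* shares 45 exon bases with *S1pr3* on the opposite strand.

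*Stat3* (ENSMUSG00000004040, chr11:100885098-100939540, - strand) encodes the transcription factor through which gp130 cytokines act. Its mRNA varied least among the genes that did not pass the test, at 254, 252 and 229 CPM in the KO-labelled libraries and 271, 249, 256 and 229 CPM in WT. The log2 fold change was -0.04 (SE 0.08, 95% interval -0.22 to 0.15, adjusted p = 0.802). This is a narrow interval, and it concerns mRNA only, as the phosphorylation that activates STAT3 is not read by RNA. *Stat5a* shares 72 exon bases with *Stat3* on the opposite strand.

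*Aspg* (ENSMUSG00000037686, chr12:112106679-112127559, + strand) was the only 1 of the 10 genes that was higher with an adjusted p under 0.05 (edgeR). Levels were 32.6, 30.1 and 32.1 CPM in the KO-labelled libraries and 20.3, 24.4, 21.1 and 23.8 CPM in WT. Every labelled library was at least 5.76 CPM above every WT library, and the spread was small in both groups. The ratio of the means was 1.41, with a log2 fold change of 0.50 (SE 0.09, 95% interval 0.30 to 0.70, adjusted p = 0.0419). The size was steady, at 0.45 to 0.53 with 1 library left out, but the adjusted p was near the threshold. It stayed under 0.05 in 1 of the 7 fits with a library left out (the one without WT replicate 3), and reached 0.0508 with upper-quartile normalization and 0.0794 with sex as a covariate (edgeR). *Serpina3n*, with the same ratio of means, and *Gfap* were also higher in every labelled library but did not pass with edgeR.

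**Figure D2:**
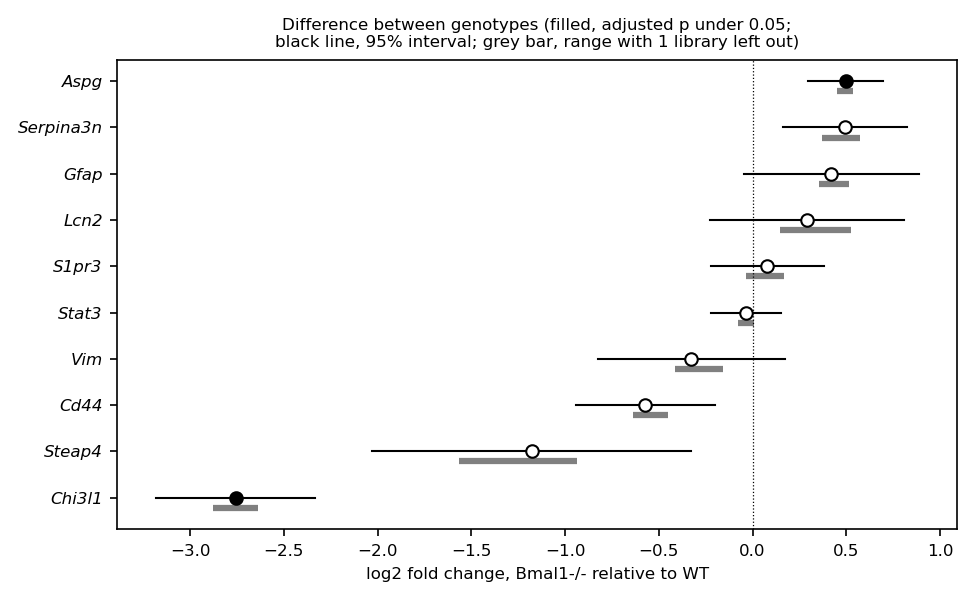
Log2 fold change of the 10 genes, KO-labelled libraries relative to WT (points), with 95% intervals (black lines) and the range over the 7 fits that left out 1 library (grey bars). Filled points mark *Aspg* (0.50) and *Chi3l1* (-2.76), which passed an adjusted p of 0.05, and the intervals of *Gfap*, *Lcn2*, *S1pr3*, *Stat3* and *Vim* include 0.

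The members were chosen with earlier results of these data known, so the counts below, set beside all genes, do not test the list. Counted over the list, 2 of the 10 genes passed the test, where 1.57% of all genes tested did. One was higher, against 0.654% of all genes in that direction, and 1 was lower, against 0.915%. An unadjusted p under 0.05 was reached by 5 of 10 genes and by 20.9% of all genes. The genotypes did not overlap for 6 of 10 genes, where 26.9% of all genes did not. *Gfap*, *Serpina3n* and *Aspg* were the 3 higher ones (13.4% of all genes), and *Steap4*, *Cd44* and *Chi3l1* the 3 lower ones (13.5% of all genes). Since 5 log2 fold changes were above 0 and 5 below, the median was 0.02 (-0.05 to 0.09 with 1 library left out), next to -0.01 over all genes tested. The list as a whole had no common direction. The Wald test of DESeq2, the tool with which the authors called genes, was more permissive. It called the 6 genes that did not overlap and 9.14% of the genes it tested.

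Levels per kilobase of exon put the genes on 1 scale. In WT, *Gfap* led with 2063 ± 305 CPM per kb (SD, n = 4), followed by *Serpina3n* (781 ± 77.8) and *Vim* (560 ± 127), whose ranges overlapped. *Cd44*, *Stat3*, *Chi3l1*, *Lcn2* and *S1pr3* formed a middle group from 28.8 down to 13.9 CPM per kb, in which each overlapped with its neighbour. *Aspg* (6.36 ± 0.57) and *Steap4* (2.37 ± 0.83) were lowest and apart. *Chi3l1* changed its place most, from rank 6 with 24.7 ± 5.38 CPM per kb in WT to rank 9 with 3.66 ± 0.10 CPM per kb (SD, n = 3) in the KO-labelled libraries. There it lay below *Aspg* (8.98 ± 0.37) and above *Steap4* (1.04 ± 0.45) without overlap with either. *Gfap* led there too, at 2760 ± 336 CPM per kb (SD, n = 3).

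Part of the variation ran across genes within a library. WT replicate 3 had the highest WT level of 6 of the 10 genes and the lowest of 1, *Gfap*. KO-labelled replicate 1 was the highest of its group for 8 genes and replicate 3, its only male, the lowest for 8. After removal of the genotype means, *Vim* and *Cd44* varied together over the 7 libraries (r = 0.94), as did *S1pr3* and *Stat3* (r = 0.91). These are descriptions of libraries that share depth and cell content. *Gfap* did not follow *Vim* in this way (r = -0.04). Over 7 libraries and with genotype left in, the genes most like *Gfap* among 11117 genes of at least 10 CPM were *Prnp*, the prion protein gene (r = 0.99), *E130114P18Rik* (r = 0.99), *Rbbp9* (r = 0.99), the fatty acid elongase gene *Elovl5* (r = 0.98) and the parathyroid hormone receptor gene *Pth1r* (r = 0.98). In all, 76 genes had an r above 0.9.

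A set of 16 genes of astrocyte identity gave a second view, as these mark astrocytes also without injury. None of them passed the test with edgeR (6 had an unadjusted p under 0.05, and DESeq2 called 2, *Aldh1l1* and *Glul*). The genotypes did not overlap for 7 of the 16 (6 higher and 1 lower in the KO-labelled libraries), where 26.9% of all genes did not. Without WT replicate 3, *Slc1a3* (log2 fold change -0.56, adjusted p = 0.0067) and *Aldh1l1* (-0.55, adjusted p = 0.0296) passed with edgeR. Of their log2 fold changes 10 were above 0 and 6 below, and the median was 0.17, with 0.07 (without WT replicate 3) to 0.25 when 1 library was left out. Their mean log2 CPM was 8.87, 8.85 and 8.86 in the KO-labelled libraries and 8.71, 8.85, 8.32 and 8.95 in WT. Thus it was even in the former and lowest in WT replicate 3. The 3 genes with the smallest p were not of one direction. *Aldh1l1*, a folate enzyme and pan-astrocyte marker, had 127 ± 11.4 CPM (SD, n = 3) against 175 ± 27.4 in WT (SD, n = 4; log2 fold change -0.47, adjusted p = 0.133, edgeR). *Glul*, glutamine synthetase, had 1785 ± 179 (SD, n = 3) against 1342 ± 118 CPM (SD, n = 4; log2 fold change 0.41, adjusted p = 0.141, edgeR). *Slc1a3*, the glutamate transporter GLAST, had a log2 fold change of -0.44 (adjusted p = 0.176, edgeR).

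When this identity level was subtracted library by library, fewer members stood apart. *Steap4* (a difference of -1.34 in log2 units), *Cd44* (-0.72) and *Chi3l1* (-2.88) still did not overlap between genotypes. *Gfap* (0.28), *Serpina3n* (0.34) and *Aspg* (0.35) now overlapped, so that 3 of 10 genes stood apart, where 17% of all genes did not overlap after the same subtraction. For *Serpina3n* and *Aspg* the overlap came from WT replicate 3, and for *Gfap* also from WT replicate 2 (4.44 log2 units above the identity genes, with KO-labelled replicate 3 at 4.43). Without WT replicate 3, 6 of 10 genes and 21.4% of all genes did not overlap, with *Lcn2*, *Serpina3n* and *Aspg* higher and *Steap4*, *Cd44* and *Chi3l1* lower. With *Aqp4*, *Slc1a2* and *Slc1a3* alone as the base, the count was 3 again, where 19% of all genes did not overlap.

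**Figure D3:**
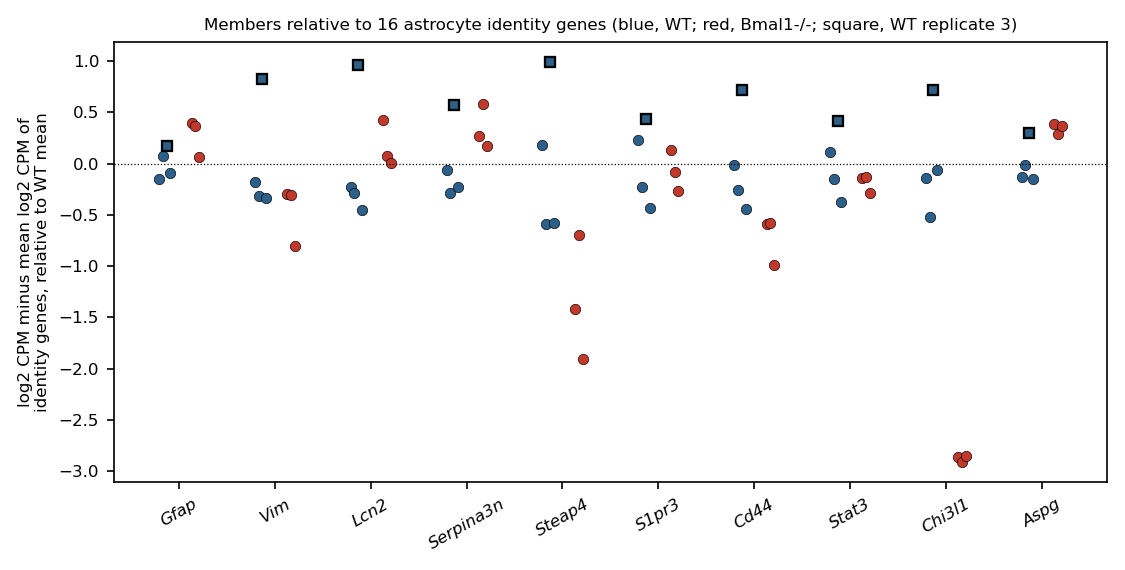
Log2 CPM of each gene after subtraction of the mean log2 CPM of 16 astrocyte identity genes in the same library, drawn relative to the WT mean, for 4 WT libraries (blue, with WT replicate 3 as a square) and 3 KO-labelled libraries (red). The mean difference from WT is -2.88 log2 units for *Chi3l1* and -0.72 for *Cd44*, both without overlap, and WT replicate 3 is the highest WT library for each of the 10 genes.

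Further genes of reactive astrocytes, of their signalling paths and filaments, and of astrocyte identity made 9 lists. These hold 74 distinct genes, some of them in more than 1 list, and all were tested. Of these 1 passed, a share near the 1.57% of all genes. It was *Des*, the gene of the muscle and pericyte filament protein desmin, with 5.26, 4.67 and 4.29 CPM in the KO-labelled libraries and 17.7, 15.2, 25.1 and 10.4 CPM in WT. Its log2 fold change was -1.85 (SE 0.29, adjusted p = 0.0312, edgeR), an antisense gene (*Gm15179*) overlaps it, and the call held in 2 of 7 fits with a library left out. The other filament partners, *Nes*, *Synm* and *Plec*, did not pass. *Nes*, the gene of nestin, an immature filament protein that reactive astrocytes and endothelial cells make again, had 172 ± 40.2 CPM (SD, n = 3) against 315 ± 88.5 in WT (SD, n = 4) without overlap (log2 fold change -0.87, adjusted p = 0.131, edgeR). The median of the 4 partners, *Des* included, was -0.50, and -0.40 without WT replicate 3.

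Further pan-reactive genes numbered 5, of which 0 passed with edgeR (1 had an unadjusted p under 0.05, *Timp1*, which DESeq2 called). All 5 had log2 fold changes below 0 (median -0.26, and -0.15 without WT replicate 3). *Timp1*, an inhibitor of matrix metalloproteinases, had 75.0, 84.9 and 53.1 CPM in the KO-labelled libraries and 106, 119, 174 and 112 CPM in WT. These did not overlap, with a log2 fold change of -0.85 (SE 0.22, adjusted p = 0.116, edgeR). *Cxcl10*, a chemokine gene, and *Cp*, the gene of the copper-carrying oxidase ceruloplasmin, overlapped between genotypes (log2 fold changes -0.52 and -0.21).

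Genes that have been called A1-type, from astrocytes exposed to inflammatory signals, numbered 11. None passed with edgeR, DESeq2 or limma-voom, 1 had an unadjusted p under 0.05 (edgeR), and 11 of 11 log2 fold changes were below 0 with a median of -0.36 (-0.22 without WT replicate 3). *Fbln5*, a gene of elastic fibres, *Srgn*, a proteoglycan gene of leukocyte granules, and *Psmb8*, an immunoproteasome gene, had log2 fold changes of -0.61, -0.66 and -0.40 and overlapped between genotypes.

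The A2-type genes, described after ischemia, numbered 12. With edgeR 0 passed and 6 had an unadjusted p under 0.05, and DESeq2 called 4 (*B3gnt5*, *Cd109*, *Ptgs2* and *Tm4sf1*). Of the 12 log2 fold changes 4 were above 0 and 8 below (median -0.32, and -0.18 without WT replicate 3). *Ptgs2*, the gene of the prostaglandin enzyme COX-2, had 6.38, 5.06 and 4.92 CPM in the KO-labelled libraries and 8.95, 10.1, 16.7 and 12.3 CPM in WT. The groups did not overlap, with a log2 fold change of -1.14 (SE 0.23, adjusted p = 0.0655, edgeR). *Tm4sf1*, a membrane protein gene that endothelial cells also express, behaved alike (88.4 ± 15.9 against 176 ± 54.4 CPM, log2 fold change -0.99, adjusted p = 0.0953, edgeR, n = 3 and 4). *Cd109*, the gene of a surface protein that binds transforming growth factor β, was the exception with 163, 181 and 125 CPM against 89.5, 107, 120 and 97.2 CPM (log2 fold change 0.60, SE 0.15, adjusted p = 0.10, edgeR). Without WT replicate 3, these 3 genes passed the test.

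**Figure D4:**
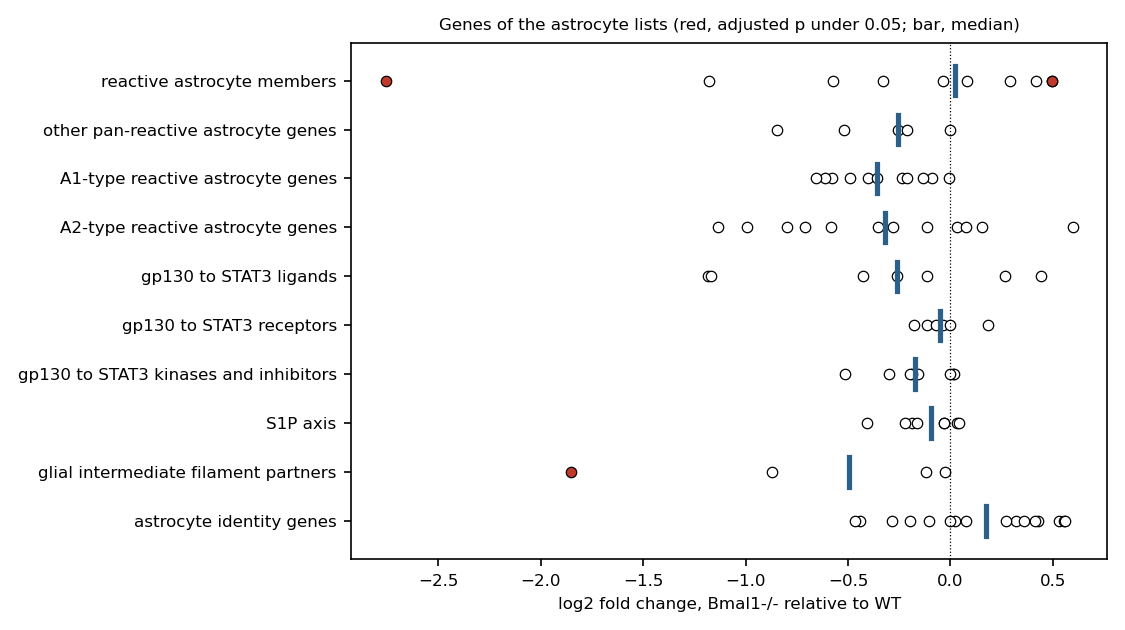
Log2 fold change of each gene (circles), KO-labelled libraries relative to WT, for the 10 members and 9 lists of related genes, with the median of each list (blue bars). Red circles mark the 3 genes with an adjusted p under 0.05, *Chi3l1*, *Aspg* and *Des*, and the medians of the A1-type and A2-type lists lie at -0.36 and -0.32.

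Along the path to STAT3, no ligand, receptor, kinase or inhibitor passed with edgeR, DESeq2 or limma-voom. An unadjusted p under 0.05 (edgeR) was reached by 2 of 7 ligands, 0 of 6 receptors and 1 of 8 kinases and inhibitors. Among 7 ligand genes 2 had log2 fold changes above 0 and 5 below (median -0.26, with -0.08 without WT replicate 3 and -0.07 without KO-labelled replicate 3). *Il6* was rare in this tissue, with 5 to 12 reads in the KO-labelled libraries and 8 to 41 in WT. *Il11* had 0.97 ± 0.23 CPM (SD, n = 3) against 2.18 ± 1.00 (SD, n = 4; log2 fold change -1.17, adjusted p = 0.171, edgeR). *Lif*, leukemia inhibitory factor, had 11.7 ± 0.42 CPM (SD, n = 3) against 8.62 ± 2.13 (SD, n = 4; log2 fold change 0.44, adjusted p = 0.230, edgeR), and WT replicate 3 alone, at 11.6 CPM, reached the labelled libraries. Without that library *Lif* passed (log2 fold change 0.62, adjusted p = 0.0278, edgeR).

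The 6 receptor genes were nearly level, with a median of -0.05 and log2 fold changes from -0.18 (*Il11ra1*) to 0.19 (*Cntfr*), and *Il6ra* stood at -0.12. Over the 8 genes of kinases and inhibitors the median was -0.17. *Socs1*, a feedback inhibitor of this path, had a log2 fold change of -0.51 at 1.07 to 1.93 CPM against 1.77 to 2.37 CPM. *Pias3*, an inhibitor of STAT3, had 25.6 ± 1.40 CPM (SD, n = 3) against 29.2 ± 0.70 CPM (SD, n = 4) without overlap (log2 fold change -0.19, adjusted p = 0.182, edgeR), and the kinase gene *Tyk2* stood at -0.16. *Socs3*, a target and inhibitor of STAT3, ranged from 49.8 to 63.4 CPM and from 50.1 to 97.3 CPM (log2 fold change -0.30, adjusted p = 0.434, edgeR), a gene named here after its values were seen.

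The other genes of sphingosine 1-phosphate signalling did not pass either (0 of 8 with edgeR, DESeq2 or limma-voom, 2 at an unadjusted p under 0.05 in edgeR, median log2 fold change -0.10). *S1pr2* had 17.5 ± 1.97 CPM (SD, n = 3) in the KO-labelled libraries and 23.3 ± 3.19 CPM (SD, n = 4) in WT without overlap (log2 fold change -0.41, adjusted p = 0.157, edgeR). The receptor genes *S1pr1* and *S1pr5*, the latter expressed by oligodendrocytes, had log2 fold changes of -0.19 and -0.22. Among the related genes named here, *Cxcl10*, *Cp*, *Psmb8*, *Il6ra*, *Pias3*, *Tyk2*, *S1pr5*, *Plec*, *Synm*, *Glul*, *Slc1a2*, *Il11ra1* and *Aldh1l1* share exon bases with another gene, so that their counts are uncertain.

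Markers of other cells that can express members of the list were read in the same libraries, and none of these marker genes was at 0 counts in any library. *Cd14* was in both the macrophage list and the A2-type list. Calls are those of edgeR, with those of DESeq2 where they differ. The summed level of 9 macrophage markers was 2192 to 2960 CPM in the KO-labelled libraries and 2143 to 4297 CPM in WT (0 of 9 passed and 2 had an unadjusted p under 0.05, DESeq2 called *Arg1*, median log2 fold change -0.36, and -0.10 without WT replicate 3). For 8 neutrophil markers it was 34.3 to 68.0 against 40.9 to 138 CPM (0 of 8 passed and 1 had an unadjusted p under 0.05, median -0.78, and -0.42 without WT replicate 3). For 6 endothelial markers it was 337 to 387 against 400 to 654 CPM without overlap (1 of 6 passed, *Cdh5*, which was lower, DESeq2 called 3, median -0.52, and -0.28 without WT replicate 3). Without WT replicate 3, 3 of the 6 endothelial markers passed, and 0 did with any other library left out. For 6 fibroblast markers the summed level was 1114, 3084 and 903 CPM in the KO-labelled libraries and 2417 to 3057 CPM in WT (0 of 6 passed and 2 had an unadjusted p under 0.05, DESeq2 called 2, median -0.70). KO-labelled replicate 2 thus stood apart from its group in fibroblast RNA, and without it the median was -1.86. Then 4 of the 6 fibroblast markers passed, and 0 did with any other library left out. KO-labelled replicate 2 was also the highest of its group for *Steap4* and *Serpina3n*. For 5 Schwann cell markers the summed level was 155 to 210 against 235 to 554 CPM without overlap (1 of 5 passed, *Egr2*, which was lower, DESeq2 called 5, median -1.60). Microglia markers (median -0.11, and -0.19 to 0.03 with 1 library left out), oligodendrocyte markers (-0.01, -0.08 to 0.05), ependymal markers (-0.34, -0.49 to -0.12) and neuron markers (0.38, 0.15 without WT replicate 3 to 0.57 without WT replicate 1) completed the set, with 0 of 6 passed in each by edgeR and DESeq2, and 0, 1, 2 and 0 at an unadjusted p under 0.05 (edgeR). The part of these cells in the levels of *Chi3l1*, *Cd44*, *Vim*, *Steap4* and *Lcn2* was not tested.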

How the data were processed

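RNASeq counts were compared between 3 libraries labelled *Bmal1*-/- and 4 WT libraries, 1 per mouse. The authors prepared stranded poly-A libraries, checked reads with FastQC 0.10.1, mapped them with Tophat2 (GRCm38) and assigned them to genes with HTSeq 0.10.0. The authors called genes with DESeq2 at an adjusted p under 0.05 and deposited these counts raw. The annotation release and the strand setting of the counting are not given in the sources used here, so overlapping and antisense genes are uncertain. Totals were 38529644 to 44096737, and spread between mice rather than counting error limits the precision.

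A filter on low counts (filterByExpr, by genotype) left 15743 genes, which were normalized with TMM and tested with the quasi-likelihood test (edgeR 4.0.16, limma 3.58.1, R 4.3.3) with Benjamini-Hochberg adjustment over all of them at 0.05. Log2 CPM used a prior count of 2. Fold changes are libraries labelled *Bmal1*-/- relative to WT. Positions are from GENCODE M21 and promoters from RefSeq. Named were all members, related genes with an adjusted p under 0.05, the up to 3 smallest p per list, and the 5 genes most like *Gfap*. The members and lists were chosen with earlier results of these data known. Alternatives were DESeq2 1.42.0, its size factors, upper-quartile normalization, no filter, a mean count of at least 10, voom, sex, a replicate block and leaving out each library. List medians with each library left out, and the shares of all genes beside relative counts, were added after seeing the data. The code was tested on simulated data.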

Additional observations from a re-analysis of the deposited data

Results flagged for a closer look

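WT replicate 3 was far from the other 3 WT libraries for 2 of the 10 genes. *Vim* was at 3551 CPM in it and at 2305 to 2441 CPM in the others, a gap that takes 0.891 of the range of the group and is past Dixon's critical value for 4 samples. *Lcn2* was at 68.0 CPM in it and at 38.7 to 41.2 CPM in the others, a gap of 0.915 of the range, also past that value. Chance flags about 1 in 20 such groups, and 10 were examined.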

How the results depend on the processing

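The number of members called (2 of 10) was 6 with DESeq2's Wald test (3 higher and 3 lower), 1 with upper-quartile normalization, 1 with sex as a covariate and 1 to 2 with each library left out in turn. Over all genes, the count (247) was 1494 with DESeq2 and 57 to 730 with each library left out, highest without WT replicate 3 and lowest without KO-labelled replicate 1. The related genes called (1) were 9 with DESeq2, 0 with limma-voom, 0 with sex as a covariate and 0 to 7 with each library left out, highest without WT replicate 3. Members apart from WT relative to identity genes (3) were 3 to 6 with each library left out, where 19.6% to 32% of all genes were apart. Values near 0 turned sign with 1 library left out: the log2 fold change of *S1pr3* ran from -0.034 (without KO-labelled replicate 1) to 0.167, and that of *Stat3* from -0.078 to 0.0095 (without KO-labelled replicate 3). *Chi3l1* was called in 14 of 15 alternatives, all but the replicate block below, and *Aspg* in 6. The cause of these shifts was not tested.

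With a replicate block, 0 members, 0 related genes and 0 genes in all were called by edgeR, 3 members kept an unadjusted p under 0.05 (5 without the block), and *Chi3l1* stood at -2.67 on the log2 scale (adjusted p = 0.0715). In this fit WT replicate 4 has no partner and adds nothing to the comparison, which leaves few degrees of freedom and little power. The labels do not state a pairing of mice by replicate number. Deviations of same-numbered libraries correlated at -0.174, 0.183 and -0.295, which cannot show whether mice were paired. Of 555 values of single genes under an alternative, 518 kept direction and side of the threshold, 17 gained and 18 lost a call. With 3 and 4 mice, the edgeR intervals of *Gfap* and *Lcn2* included 0, while DESeq2 called *Gfap* (adjusted p = 0.0477).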
